A study of Mus musculus with 23 samples.

Results

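The 9 genes of the blood vessel wall described here were followed through the nucleus accumbens, a ventral striatal region of reward and motivation, of 23 mice. The genes were Cldn5, Pecam1, Flt1, Kdr, Cdh5 and Tek of endothelial cells and Pdgfrb, Rgs5 and Acta2 of mural cells. Each was read from the probe set that names it alone, with the highest mean where there were several, which made 9 of the 22180 genes with a probe set of their own. Rgs5 had 2 such probe sets and each of the other members had 1.

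Total RNA of micropunched tissue (150 ng per sample) had been hybridised to whole-transcript microarrays, with 1 array per sample. The mice were C57BL/6, about 15 weeks old, and had received, about 5 weeks earlier, an adeno-associated virus (AAV) in the nucleus accumbens with an shRNA (a short hairpin RNA) targeting Nr1d1 or with a scrambled hairpin as the control. The product of Nr1d1, REV-ERBα, is a clock protein and a transcriptional repressor. The groups held 5 control females, 6 females labelled Nr1d1 knockdown, 6 control males and 6 males labelled Nr1d1 knockdown, so every group had been injected with virus, and the submitters call all of them biological replicates. Which promoter drives the hairpin and which cells took up the virus is not stated in the labels. A postpartum day is mentioned in the labels of males as well as females, and the labels of males also mention litter culling. No use was therefore made of the females' reproductive state.

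In brain, endothelial cells line the vessels and are joined by tight and adherens junctions that form the blood-brain barrier. Mural cells lie on their outer side: pericytes on capillaries, and contractile smooth muscle cells on arterioles and arteries. Endothelial cells recruit pericytes by secreting PDGF-B, which acts on the receptor encoded by Pdgfrb. In whole tissue, fewer cells of a type and less RNA per cell cannot be told apart.

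The promoters of 6 of the 9 members were in the RefSeq table (GRCm38.p6), which also held 14 of 20 other mural genes used below. A motif search is given first, for a promoter element known from smooth muscle genes, the CArG box bound by serum response factor. Any part of this element in how the genes varied between mice was not tested. The search took CCNNNNNNGG with at least 5 of the 6 N bases being A or T, a pattern that reads the same on both strands. It was run on the 250 bases before the start the table gives for each gene, which need not be the outer end of the gene span given below: 212 of the 250 bases lie inside that span for Acta2, 203 for Tek, all for Flt1 and Kdr and 0 for Rgs5 and Cldn5. Acta2 and Myl9, a smooth muscle myosin light chain gene, are shown with their matches in capitals, and Rgs5 is shown because it held none.
Acta2, chr19:34255374-34255623, minus strand: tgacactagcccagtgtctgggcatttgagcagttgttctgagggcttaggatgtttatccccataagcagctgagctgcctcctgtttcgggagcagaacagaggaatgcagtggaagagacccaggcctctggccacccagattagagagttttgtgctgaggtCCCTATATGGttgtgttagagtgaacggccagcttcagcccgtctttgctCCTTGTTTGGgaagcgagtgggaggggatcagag
Myl9, chr2:156775214-156775463, plus strand: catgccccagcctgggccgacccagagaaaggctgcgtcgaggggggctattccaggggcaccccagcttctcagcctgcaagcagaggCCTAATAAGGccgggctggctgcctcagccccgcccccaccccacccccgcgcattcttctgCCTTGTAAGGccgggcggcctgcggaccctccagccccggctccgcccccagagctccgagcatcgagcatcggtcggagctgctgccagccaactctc
Rgs5, chr1:169655251-169655500, plus strand: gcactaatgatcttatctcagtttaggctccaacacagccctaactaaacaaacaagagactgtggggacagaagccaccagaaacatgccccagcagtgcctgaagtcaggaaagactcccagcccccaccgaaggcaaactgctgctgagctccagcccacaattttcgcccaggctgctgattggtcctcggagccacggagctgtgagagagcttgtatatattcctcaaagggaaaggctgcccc
The Acta2 matches lay at bases -84 to -75 and -34 to -25 from the table's start, and those of Myl9 at -161 to -152 and -99 to -90. Kdr held 1 match, and Cldn5, Flt1 and Tek held 0. Of the 14 other mural promoters only that of Myl9 held a match (7.14%), and those of the contractile genes Cnn1, Des, Lmod1, Mylk and Tpm2 held 0. Of all 32841 promoters of this length in the table, 8.59% held at least 1 match, and 1.47% held 1 with all 6 bases A or T, as the upstream match of Myl9 has. A match describes these letters and is not a site shown to be bound.

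The deposited values are log2 intensities, so a difference of 1 is a doubling, and levels of different probe sets were not set against each other. Array medians lay between 6.11 and 6.17 in females and between 5.84 and 5.88 in males, and the median gene was 0.28 lower on the log2 scale in males, so sex and a separate normalization of the female and male arrays cannot be told apart. Of the members, 7 of 9 had the lower mean in males, against 91.9% of all genes, while Cldn5 (0.07 higher) and Acta2 (0.39 higher) had the higher mean there. The female and male values did not overlap for Flt1 and Rgs5, nor for 28.5% of all genes. Xist and the Y-linked gene Uty fitted the sex label of every array. Nr1d1 itself, which checks the knockdown label, had means of 10.04 ± 0.07 (SD, n = 5) in control females and 9.99 ± 0.16 (n = 6) in females labelled knockdown. In males its means were 9.59 ± 0.20 and 9.58 ± 0.13 (n = 6 each). The differences of -0.05 and -0.01 had exact permutation p values of 0.563 and 0.926 (two-sided), so no reduction was detectable and every direction below rests on the labels alone. Genes of cortical excitatory neurons, which mark neighbouring tissue, varied most between arrays in males, where the mean of the 7 genes ranged from 6.63 to 8.93 in controls and from 6.76 to 8.57 in labelled knockdowns. Its correlation with the mean of the endothelial members was -0.303 and with that of the mural members -0.131. With the single mural members it was -0.416 for Rgs5, -0.11 for Pdgfrb and -0.061 for Acta2. The part of these cortical genes in the results was not tested.

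Cldn5 encodes claudin-5, the main tight junction protein of brain endothelium (chr16:18776847-18778262). Control females read 6.94, 6.75, 6.74, 6.76 and 6.82, and the 6 labelled knockdown females ran from 6.44 through a median of 6.68 to 7.09. Control males ran from 6.45 through 6.86 to 7.02, and labelled knockdown males from 6.60 through 6.83 to 7.07. The labelled knockdown females spread on both sides of the controls, 2 of 6 above the control mean, and the male groups covered almost the same range. The difference was -0.09 (SE 0.12) in females and 0.03 (SE 0.11) in males.

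Pecam1 (chr11:106654213-106715281) encodes CD31, an adhesion molecule of endothelial contacts. Its values were 7.82, 7.93, 7.81, 7.77 and 7.87 in control females, and 7.64 to 8.04 with a median of 7.80 in labelled knockdown females. In males they were 7.35 to 7.65 (median 7.50) and 7.37 to 7.76 (median 7.51). The labelled knockdown arrays reached above the highest control in both sexes, and in females also below the lowest. Above the control mean lay 2 of 6 labelled knockdown females and 3 of 6 labelled knockdown males. The differences were -0.03 (SE 0.07) and 0.06 (SE 0.07).

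Cdh5 (chr8:104101613-104144504) encodes VE-cadherin, the adherens junction protein of endothelium. Control females read 8.45, 8.82, 8.52, 8.46 and 8.51, against 8.36 to 8.82 with a median of 8.50 in labelled knockdown females. Males ran from 8.09 through 8.21 to 8.64 in controls and from 8.11 through 8.24 to 8.57 in labelled knockdowns. A single array stood above the rest in each female group, at the same level of 8.82. The differences were -0.02 in both sexes (SE 0.10 each).

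Flt1 (chr5:147561604-147726438) and Kdr (chr5:75932827-75979072) encode the VEGF receptors VEGFR1 and VEGFR2, the first a high-affinity receptor that limits signalling in endothelium and the second its main signalling receptor. Flt1 read 8.49, 8.52, 8.37, 8.32 and 8.51 in control females and 8.45 to 8.54, with a median of 8.47, in labelled knockdown females. In males it ran from 8.10 through 8.17 to 8.26 and from 8.14 through 8.14 to 8.23. The SD of Flt1 was 0.09 in control females, where that of Pecam1 was 0.06, and between 0.04 and 0.06 in the other groups. The Flt1 differences were 0.04 (SE 0.04) in females, where 6 of 6 arrays lay above the control mean, and 0.003 (SE 0.04) in males. Kdr read 7.70, 7.74, 7.50, 7.73 and 7.73 in control females, and from 7.39 through 7.59 to 7.95 in labelled knockdown females. Males ran from 7.33 through 7.41 to 7.64 and from 7.43 through 7.46 to 7.58. Of the labelled knockdown females 1 of 6 lay above the control mean for Kdr, and that array, replicate 4, was the highest of all 11 female arrays. The Kdr differences were -0.07 (SE 0.08) and 0.03 (SE 0.07).

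Tek (chr4:94739086-94874976) encodes TIE2, the angiopoietin receptor of endothelium. It read 7.20, 7.44, 7.20, 6.99 and 7.28 in control females and 6.94 to 7.38, with a median of 7.23, in labelled knockdown females. Males ran from 6.90 through 7.19 to 7.29 and from 7.00 through 7.12 to 7.18. The labelled knockdown males lay inside the range of the control males. The differences were -0.03 (SE 0.08) and -0.05 (SE 0.08).

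Pdgfrb (chr18:61045127-61085067) encodes the PDGF receptor β of pericytes and smooth muscle. Control females read 8.46, 8.65, 8.30, 8.18 and 8.29, and labelled knockdown females 8.32 to 8.63 with a median of 8.37. Males ran from 8.02 through 8.19 to 8.29 and from 8.01 through 8.14 to 8.40. The groups of each sex overlapped over most of their range, with differences of 0.04 (SE 0.08) and 0.01 (SE 0.08).

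Rgs5 (chr1:169655501-169695813) encodes a regulator of G protein signalling that is abundant in brain pericytes. Its values were 10.38, 10.37, 10.41, 10.33 and 10.58 in control females, and 10.42 to 10.52 with a median of 10.46 in labelled knockdown females. In males they were 9.98 to 10.27 (median 10.14) and 10.08 to 10.20 (median 10.17). The labelled knockdown arrays lay within the control range in both sexes, with 6 of 6 and 5 of 6 above the control mean. The differences were 0.05 (SE 0.05) and 0.03 (SE 0.05). The other Rgs5 probe set, dimmer with a mean of 5.71, followed it with r = 0.552 over the 23 arrays after group means were removed. With the mean of both probe sets the female difference had the opposite sign, -0.04, and the male difference was 0.04.

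Acta2 (chr19:34240336-34255585) encodes the α-actin of smooth muscle. It read 7.93, 8.57, 8.51, 8.41 and 8.56 in control females, and 8.10, 8.51, 8.30, 9.36, 8.04 and 8.16 in labelled knockdown females. Control males read 8.94, 8.36, 9.25, 8.98, 8.57 and 8.42, and labelled knockdown males 10.36, 8.52, 8.29, 8.30, 8.86 and 8.67. Labelled knockdown male 1 lay 1.50 above the next array of its group and labelled knockdown female 4 lay 0.85 above the next of its own, while 4 of the other 5 labelled knockdown arrays of each sex lay below the control mean. The group means were 8.40 ± 0.27 (SD, n = 5) and 8.41 ± 0.49 (n = 6) in females and 8.75 ± 0.36 and 8.83 ± 0.78 (n = 6 each) in males. The differences were 0.02 (SE 0.29) and 0.08 (SE 0.28). The female difference was -0.17 without labelled knockdown female 4, -0.10 without control female 1 and -0.004 without labelled knockdown female 2, and the male difference was -0.23 without labelled knockdown male 1, none past the threshold.

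**Figure D1:**
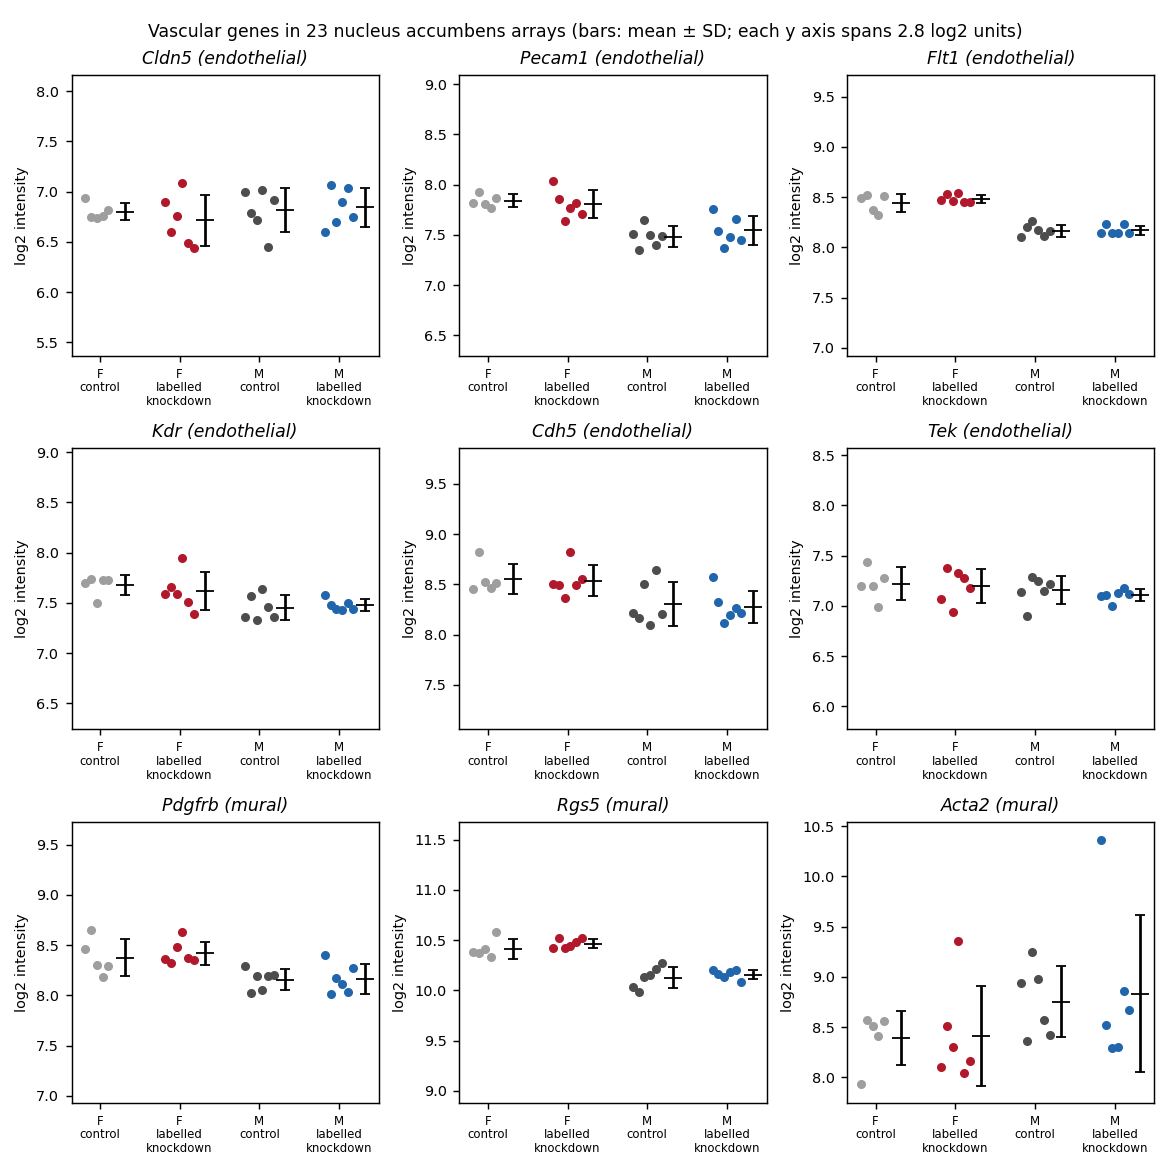
Log2 intensity (y axis) of each vascular gene in every array (points, in replicate order within a group) by sex and label (x axis, F females and M males), with the group mean and SD as a black bar beside the points. Control and labelled knockdown arrays overlap for all 9 genes in both sexes, and Acta2 spreads most, up to 10.36 in 1 labelled knockdown male.

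Across the 41345 probe sets, limma called 0 at an adjusted p under 0.05 in females and 0 in males (0.0% in each), and 0 for the average of the sexes and for the difference between them (0.0% in each). At an unadjusted p under 0.05, 5.63% of genes were called in females, 3.96% in males, 4.2% for the average and 5.18% for the difference, and none of the 9 members was among them in any of the 4 contrasts. The members' adjusted p in limma ran from 0.935 to 0.998 over both sexes, and the smallest exact permutation p was 0.277, for Rgs5 in females, where the design can reach 0.00433. The groups overlapped for all members, whereas 0.627% of genes in females and 0.0947% in males had groups that did not. In females 4 of 9 members had a difference above 0, beside 50.2% of all genes, and in males 7 of 9, beside 51.6%. All 3 mural members were above 0 in both sexes and 1 of 6 and 4 of 6 endothelial members, but the signs of Acta2 and Rgs5 turned as given above, and that of Pdgfrb turned when single arrays were left out (to -0.04 in males without labelled knockdown male 1 and -0.01 in females without control female 4). The median difference of the 9 members was -0.02 in females and 0.03 in males, beside 0.0003 and 0.003 for all genes.

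The 95% confidence intervals bound what these arrays could have shown. For Flt1 the interval ran from -0.05 to 0.13 in females and from -0.09 to 0.09 in males, or -3.50% to 9.74% and -5.73% to 6.57% on the linear scale. For Rgs5 it ran from -0.06 to 0.16 and from -0.07 to 0.13. Cldn5 was less well bounded, at -0.33 to 0.15 in females and -0.20 to 0.25 in males. For Acta2 the interval reached from -0.59 to 0.62 in females and from -0.50 to 0.66 in males, or from -33.7% to 54.1% and from -29.3% to 58.0%. The male minus female difference of these effects was not past the threshold for any member, with the largest estimate, 0.12 (SE 0.16), in Cldn5.

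**Figure D2:**
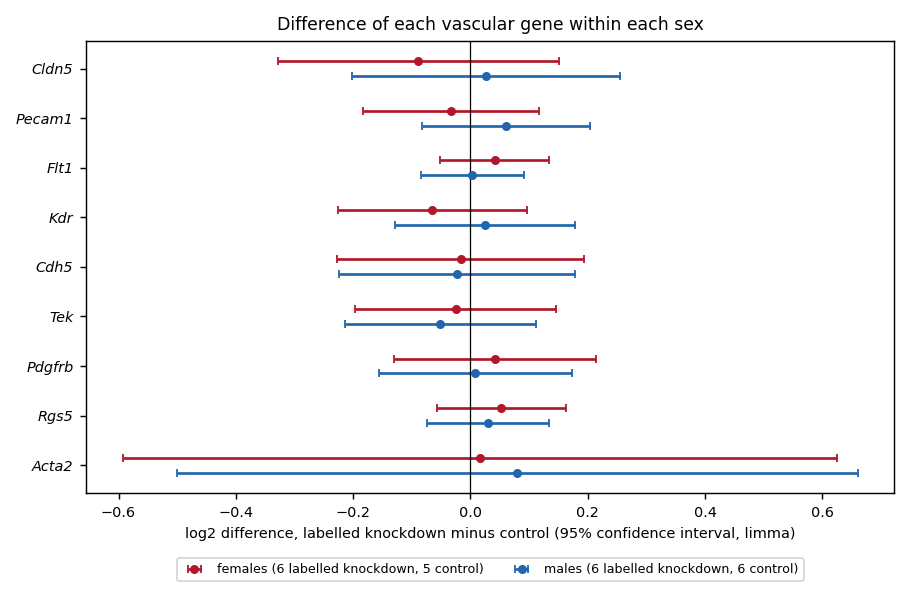
Difference of labelled knockdown minus control (x axis, log2) for each vascular gene (y axis), with limma's estimate as a point and its 95% confidence interval as a bar, for females in red and males in blue. All 18 intervals include 0, and those of Flt1 and Rgs5 are the narrowest and those of Acta2 the widest.

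Other genes of the vessel wall were read in the same fit, and 0 of 84 in the following 4 lists passed the adjusted threshold in any contrast. Of 17 further endothelial genes, 9 had a difference above 0 in females and 8 in males, with medians of 0.002 and -0.02. Sox17, a transcription factor of arterial endothelium, was 6.70 ± 0.13 (SD, n = 5) in control females and 6.86 ± 0.08 (n = 6) in labelled knockdown females, with 6 of 6 above the control mean, but only 0.04 apart in males. Esam, an endothelial adhesion molecule, had the reverse order of sizes, 0.05 in females and 0.17 (SE 0.07) in males, with 6 of 6 males above the control mean. Of 23 blood-brain barrier genes, 7 were above 0 in females and 11 in males, with medians of -0.04 and -0.003. Mfsd2a, a lipid transporter that restrains vesicle traffic across the barrier, was 0.13 higher in females (SE 0.06) and 0.11 higher in males (SE 0.06), above the control mean in 6 of 6 arrays of each sex. Tfrc, the transferrin receptor, which brain endothelium carries but other cells do too, was -0.23 (SE 0.10) and -0.16 (SE 0.09), above the control mean in 0 of 6 and 1 of 6 arrays. The adjusted p in limma for the average of the sexes was 0.980 for each of these 4 genes.

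Of the 20 other pericyte and smooth muscle genes, 8 had a difference above 0 in females and 13 in males, with medians of -0.01 and 0.03. Atp13a5, a pericyte transport ATPase gene, differed by -0.15 (SE 0.06) in females and -0.04 in males, and Foxs1, a pericyte transcription factor gene, by 0.16 (SE 0.06) and 0.005. Of 24 ligands and receptors of vessel growth and tone, 13 and 11 were above 0, with medians of 0.004 and -0.01. Edn1, the vasoconstrictor endothelin-1, differed by -0.11 (SE 0.09) and -0.13 (SE 0.08), and Nrp2, a VEGF co-receptor, by -0.20 (SE 0.10) and -0.01. None of these 4 genes, picked in the same way, passed the adjusted threshold of limma in either sex.

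The members differed in how much they varied between mice of the same group. The pooled within-group SD of the median gene was 0.12 on the log2 scale. Acta2 had an SD of 0.52, above that of 99.8% of genes. Cldn5 (0.20) and Cdh5 (0.17) were above 91.6% and 85.2%, while Pdgfrb, Tek, Kdr and Pecam1 lay between 0.12 and 0.14. Rgs5 (0.08) was above only 12.04% of genes and Flt1 (0.06) above 2.998%. Acta2 and Rgs5, both mural genes, thus lay near opposite ends of the range. Without labelled knockdown male 1 and female 4 the SD of Acta2 was 0.28, still above that of 98.1% of genes, and the SD of Rgs5 was 0.08, above 15.5%.

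Within groups, most pairs of members were positively correlated, and no pair passed the adjusted threshold over all 23 arrays. Of the 36 pairs of members, 31 had a positive Pearson r of their deviations from the group mean over the 23 arrays, with a median of 0.225. At an unadjusted permutation p under 0.05 (100000 permutations of mice within groups, two-sided) there were 9 pairs by r and 7 by Spearman rho. After Benjamini-Hochberg adjustment over the 36 pairs there were 0 by either. Over all genes the median r was -0.018 with Cdh5, 0.0006 with Cldn5 and between these with Acta2, Rgs5, Pdgfrb and Flt1. What share of all gene pairs is positive or reaches this p was not computed. The median r was 0.340 in the 15 endothelial pairs, 0.197 in the 18 pairs of an endothelial and a mural gene and 0.102 in the 3 mural pairs. With the 2 arrays farthest from the median of the pair's first gene left out, 23 of 36 pairs were positive and the median was 0.111.

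The highest value was that of the junction gene Cdh5 with Acta2 (r = 0.599, permutation p = 0.00572, adjusted p = 0.162; rho = 0.431, adjusted p = 0.250), and it was 0.646 without male control 5 and labelled knockdown male 1. In females alone it went from 0.695 to 0.093 without control female 2 and labelled knockdown female 4, and in males from 0.555 to 0.562 without their 2 farthest arrays. Cdh5 and Pdgfrb came next (r = 0.546, rho = 0.222, permutation p = 0.00901 for r, adjusted p = 0.162), and r was 0.489 without its 2 farthest arrays. In females alone it went from 0.707 to -0.503 without the same 2 female arrays, and in males from 0.428 to 0.076 without their 2 farthest. Among endothelial genes the receptors Flt1 and Tek had r = 0.527 (rho = 0.523, adjusted permutation p = 0.167), which was 0.317 without its 2 farthest arrays. Pecam1 and Tek had r = 0.453 (rho = 0.512, adjusted permutation p = 0.176) and 0.797 without theirs. These pairs join genes of the same cell layer and of adjoining layers alike.

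The mural genes did not form a block of their own. Pdgfrb and Acta2 had r = 0.497 (rho = 0.248, adjusted permutation p = 0.167), falling to 0.280 without their 2 farthest arrays. Rgs5 had r = 0.102 with Acta2 and -0.094 with Pdgfrb, and its highest value among the members was with the endothelial gene Tek (r = 0.486, rho = 0.498, adjusted permutation p = 0.181). Among endothelial genes Cldn5 stood apart from Cdh5, with r = -0.256 (rho = -0.240, adjusted permutation p = 0.558). Without labelled knockdown female 4 and male control 5, r was -0.389. By sex r was 0.300 in females and -0.643 in males, and -0.095 in males without male control 5 and labelled knockdown male 1.

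The array sets were then taken one at a time. In the 11 female arrays 30 of 36 pairs were positive with a median r of 0.372, and 0 passed the adjustment. In the 12 male arrays 27 were positive with a median of 0.128, and 1 passed, Pecam1 with Acta2 (r = 0.837, rho = 0.832, adjusted permutation p = 0.0144 for r and 0.0731 for rho). The same pair had r = -0.095 in females, and whether the sexes differ was not tested. By array, labelled knockdown female 4 held the highest value of its group for 6 of 9 members (Cldn5, Flt1, Kdr, Cdh5, Pdgfrb and Acta2). Labelled knockdown male 1 held it for 6 of 9 (Pecam1, Kdr, Cdh5, Pdgfrb, Rgs5 and Acta2), for Rgs5 in a tie with male 5 at 10.20. Control female 2 held it for 7 of 9, all but Cldn5 and Rgs5. In labelled knockdown male 1 the mural mean lay 0.60 above its group mean and the endothelial mean 0.06, less than in male 5 of the same group (0.08). In that array Cldn5 (6.60) was lowest of the group, and Flt1 (8.14) was at the lowest value together with males 3, 4 and 6. In labelled knockdown female 4 the means lay 0.38 and 0.19 above.

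As a description, the mean of the 6 endothelial members was set against the mean of the 3 mural members. Over the 23 arrays r was 0.599 and rho 0.570, and r was 0.757 in females and 0.543 in males. It was 0.515 without labelled knockdown male 1 and female 4, and 0.440 (rho 0.296) with Acta2 taken out of the mural mean.

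**Figure D3:**
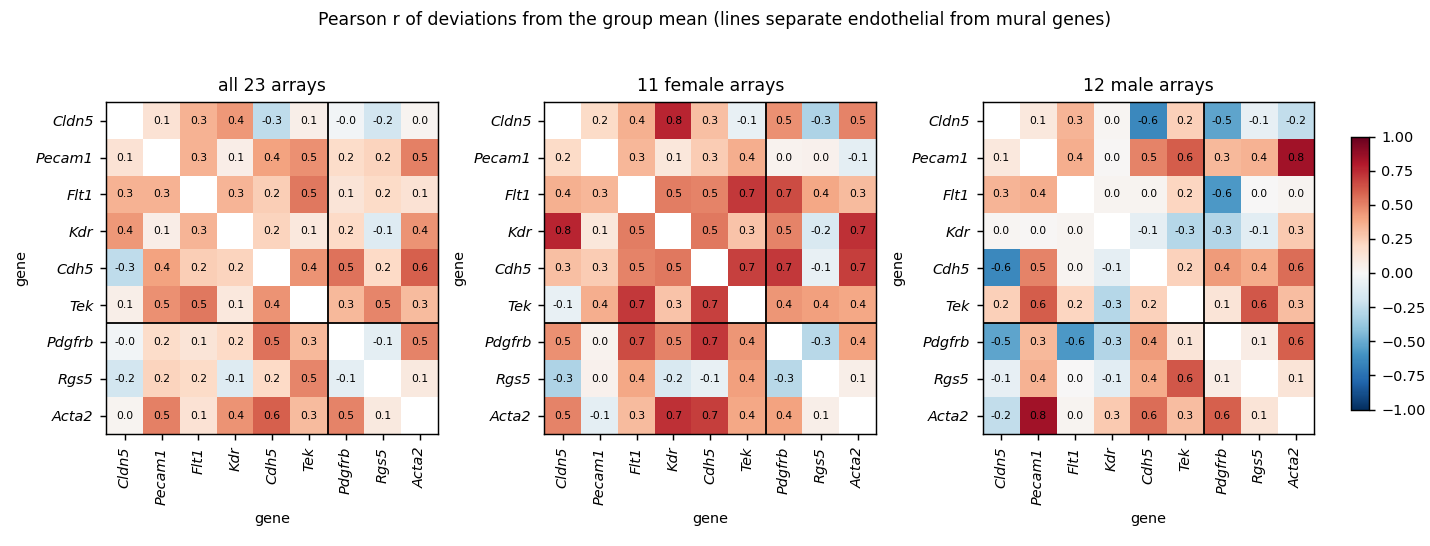
Pearson r of deviations from the group mean for each pair of vascular genes (colour, with r to 1 decimal) in all 23 arrays, in the 11 female arrays and in the 12 male arrays; black lines part the 6 endothelial genes from the 3 mural genes. Most squares are positive, and the row of Rgs5 is pale beside that of Acta2.

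The genes most like Acta2 among all 22180 were Myh11, the smooth muscle myosin heavy chain (r = 0.943 over 23 arrays), and Dcn, decorin, a matrix protein made by perivascular fibroblasts (r = 0.943). Myh11 read 7.36 to 7.86 in labelled knockdown females and 6.98 to 8.35 in labelled knockdown males, with 7.41 to 7.67 and 7.08 to 7.56 in the controls. Dcn read 6.97 to 8.30 and 6.85 to 8.60 in the labelled knockdowns and 7.23 to 8.07 and 6.93 to 7.90 in the controls. Both followed Acta2 in females (r = 0.908 and 0.878) and in males (r = 0.975 for each). Without labelled knockdown male 1 and female 4, r was 0.834 for Myh11 and 0.811 for Dcn.

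**Figure D4:**
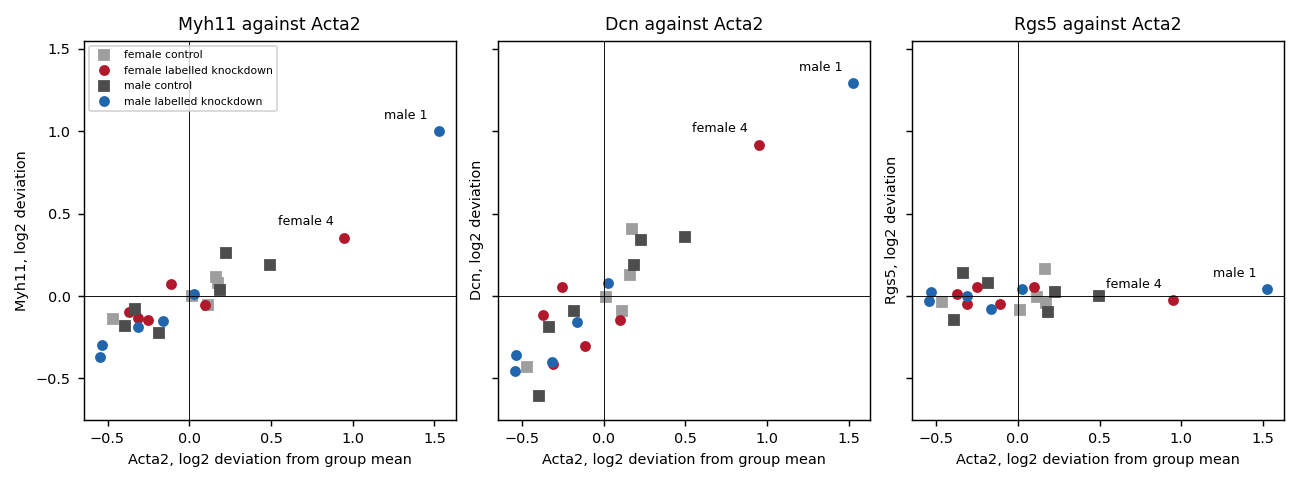
Deviation of Acta2 from its group mean (x axis, log2) against that of Myh11, Dcn and Rgs5 (y axes, log2) in the 23 arrays, with circles for labelled knockdown and squares for control. Myh11 and Dcn rise with Acta2 along the whole range, with labelled knockdown male 1 and female 4 at its upper end, while Rgs5 stays close to 0.

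Acta2 was then set against 144 genes of the vascular lists and of lists that mark other cells, with the permutation p adjusted over the 144. Among the members only Acta2, which varied most, was tested in this way, and the adjustment does not cover that choice. By r, 14 passed, all positive. Of all genes 1.75% had r above 0.5 with Acta2, and the share of all genes that would pass was not computed. By rho 15 passed, with Podxl and Col1a2 added and Angpt1 lost. Of the 20 other mural genes 6 passed. The contractile genes among them, a split made after the values were seen, gave 5 of 9, Myh11, Myl9 (r = 0.916), Tagln (0.866), Cnn1 (0.774) and Mylk (0.683), which encode myosin heavy and light chains, transgelin, calponin and myosin light chain kinase. The pericyte genes gave 1 of 11, Vtn, vitronectin (r = 0.716), and r was above 0 for 8 of the 11. The other pericyte genes ran from -0.209 for Kcnj8, a potassium channel subunit, to 0.402 for Mcam, the adhesion molecule CD146. The median r with Acta2 was 0.683 over the contractile genes and 0.195 over the pericyte genes, and 0.621 and 0.082 without the 2 arrays of highest Acta2, beside -0.009 over all genes. Actg2, the enteric actin gene, had r = 0.043.

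Of the 10 genes of perivascular fibroblasts and meninges 6 passed, Dcn, Mgp (r = 0.834), Igf2 (0.797), Lum (0.775), Col3a1 (0.722) and Slc6a13 (0.677), and their median was 0.699, or 0.515 without those 2 arrays. The list's mean level ran from 6.61 to 6.98 in control females, 6.57 to 7.00 in labelled knockdown females, 6.44 to 6.78 in control males and 6.39 to 6.99 in labelled knockdown males, and its mean had r = 0.912 with Acta2 and 0.095 with Rgs5. The part of these cells in the level of Acta2 was not tested. Of 17 endothelial genes 1 passed, Ptprb, the phosphatase that acts on TIE2 (r = 0.737, and 0.785 without the 2 arrays), and of 24 ligands and receptors 1, Angpt1, a TIE2 ligand made by mural cells (r = 0.638, and 0.418 without them). None passed of 23 barrier, 5 macrophage, 8 astrocyte, 5 microglial, 5 oligodendrocyte, 7 medium spiny neuron, 7 cortical, 7 choroid plexus and ependymal or 8 hypoxia genes. All 5 oligodendrocyte genes were negative, with a median r of -0.493, which was -0.137 without the 2 arrays. None of the 5 haemoglobin and red cell genes listed had a probe set of its own here.

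**Figure D5:**
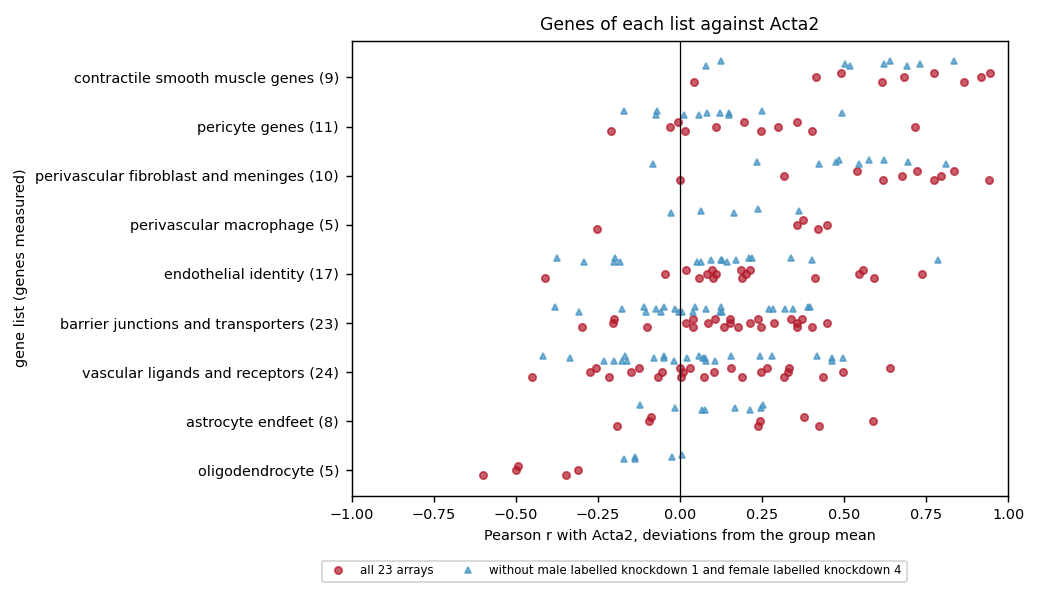
Pearson r with Acta2 (x axis) of the deviations of each gene in 9 lists (y axis, with the number of genes measured), over 23 arrays (red circles) and without labelled knockdown male 1 and female 4 (blue triangles). Contractile genes (median 0.683) and fibroblast genes (median 0.699) lie to the right of pericyte, endothelial and barrier genes (medians 0.195, 0.185 and 0.154).

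The contractile, pericyte, fibroblast and endothelial lists were less close to Rgs5, for which no permutation test against the lists was run. Rgs5 varied less within groups than Acta2 (SD 0.08 against 0.52), and the part of this small spread in its lower r was not tested. Its r had a median of 0.050 over the contractile genes, -0.016 over the pericyte genes and 0.061 over the fibroblast genes, and 0.074 over the 17 endothelial genes, beside -0.0099 over all genes. Over the 23 barrier genes the median r was 0.101 with Rgs5 and 0.154 with Acta2, and 0.125 and 0.040 without the 2 arrays. With Rgs5, 13 of the 23 were above 0 and 2 above 0.5, Itm2a (0.773) and Jam2 (0.647). The genes most like Rgs5 among all genes were Acer3, an alkaline ceramidase gene (r = 0.816, and 0.816 without the 2 arrays), and Ccdc141 (r = 0.800). For Pdgfrb the gene of highest r among all genes was Pdgfd, which encodes PDGF-D, a ligand of that receptor (r = 0.826, 0.903 in females, 0.720 in males and 0.835 without the 2 arrays). Pdgfd read 5.15 to 5.62 in control females and 5.14 to 5.49 in labelled knockdown females, and 5.22 to 5.49 and 5.15 to 5.44 in males. The second was Vmn2r83, a pheromone receptor gene (r = 0.761), whose mean of 4.02 lay below the lower quartile of every array. These most alike genes were picked as the highest of 22179, so their r is a description, with no test.

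The mean of the mural members was most like Dcn (r = 0.955), Myh11 (0.926), Mustn1 (0.920), a small nuclear protein gene of muscle, Bgn (0.912), the matrix proteoglycan biglycan, and Myl9 (0.906). Acta2 varied far more than Pdgfrb and Rgs5 and so weighs most in that mean; Rgs5 alone had r = 0.195 with Dcn and 0.133 with Myh11. The mean of the endothelial members was most like Mcpt1, a mast cell protease gene (r = 0.784), Utrn, utrophin (0.782), Rab34 (0.780), Mpeg1, a macrophage gene (0.775), and Clec2d (0.769), none of them an established endothelial marker. The Mcpt1 probe set had a mean of 3.88, below the lower quartile of every array (4.50 to 4.84). Among the 17 endothelial genes the highest r with that mean were those of Podxl, podocalyxin (0.667), and Erg, an endothelial transcription factor (0.662), and the median was 0.330, beside -0.012 for all genes. Of the 23 barrier genes the highest were Slco1c1, a thyroid hormone transporter (0.537), and Spock2, a matrix proteoglycan (0.460), with a median of 0.205. Single endothelial members had their highest r with Rmnd5a (Cldn5, 0.824), Mcpt1 (Pecam1, 0.739), Zhx2 (Flt1, 0.799), Gbp10 (Kdr, 0.769), Slc38a3 (Cdh5, 0.821) and 1700096K18Rik (Tek, 0.814). Slc38a3 encodes a glutamine transporter of astrocytes, and Gbp10 a guanylate-binding protein induced by interferon. For Kdr the value was 0.507 without the 2 arrays, and for the other 5 it stayed between 0.776 and 0.831.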

How the data were processed

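RNA levels of 23 nucleus accumbens samples were read on whole-transcript microarrays. The authors deposited log2 intensities per probe set, 1 column per array and 41345 probe sets. The authors used Transcriptome Analysis Console, per the submitters' processing notes. No version, normalization method or genome build is given in the sources used here. The quartiles of the arrays differ between the sexes and hardly within them, so contrasts between labels were made within each sex. The number of arrays limits the precision.

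Members and lists were chosen with earlier results of these data known. Probe sets were named through the array's annotation table where it gave a single symbol (23521 probe sets, 22180 genes, the probe set of highest mean for each). Coordinates and promoters came from RefSeq (GRCm38.p6). All 23 arrays entered a limma 3.58.1 model (R 4.3.3) with 1 mean per group. Tests were two-sided with Benjamini-Hochberg adjustment over all probe sets at 0.05, and an exact permutation test over mice was run beside it for each member. Correlations used deviations from the group mean, with 100000 permutations of mice within groups. The fit was tested on simulated data. Named genes were the members, Nr1d1, the genes of highest r with a member or class mean, and for each list those called, or else the 2 of smallest unadjusted p for the average of the sexes and the 2 of highest r with the class mean. Other list genes named for their r with Acta2, such as Kcnj8, Mcam and Actg2, were chosen after values were seen. Alternatives were other normalization, filters, probe sets, weights, blocks and left-out arrays. Values of no 2 arrays were identical in more than 2.85% of probe sets. The model has no replicate block.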

Additional observations from a re-analysis of the deposited data

Results flagged for a closer look

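Of 40 groups of values examined (the members and Nr1d1 in 4 groups each), 6 held an array whose gap to the next exceeded Dixon's critical value, where chance gives about 1 in 20. Acta2 held 3 of them. Its value was 10.36 in labelled knockdown male 1, 1.50 above the next array at 8.86. It was 9.36 in labelled knockdown female 4, 0.85 above the next at 8.51. It was 7.93 in control female 1, below the next at 8.41. Myh11 and Dcn, which were named for their likeness to Acta2, were also highest of their groups in labelled knockdown male 1 (8.35 and 8.60) and labelled knockdown female 4 (7.86 and 8.30). Among endothelial members, Cdh5 was 8.82 in control female 2, above the next at 8.52, and Kdr was 7.50 in control female 3, below the next at 7.70. Nr1d1 was 9.93 in control female 4, below the next at 10.05.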

How the results depend on the processing

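The counts of 0 probe sets past the adjusted threshold in females, in males, for the average of the sexes and for their difference, and of 0 member pairs, were recomputed under alternatives. For pairs these were quantile normalization within each sex, Spearman rho, each sex alone, a replicate block and left-out arrays. Separate fits of each sex gave no average or difference, and the mean of all probe sets of a gene was run for Rgs5 alone. With array weights, 1 probe set was called in the difference between the sexes (-0.98), which has no gene symbol here. In the male arrays alone 1 pair was called, Pecam1 with Acta2. Leaving out each array in turn gave 0 to 1 probe sets in females, in males and in the difference, 0 for the average, and 0 to 1 pairs. The arrays behind those calls were labelled knockdown female 1 and labelled knockdown male 4 (females), control males 1 and 5 (males and the difference), and, for pairs, labelled knockdown female 1 (Pecam1 with Tek), control male 2 (Flt1 with Tek) and control male 5 (Cdh5 with Acta2). No member was called, and the probe sets have no gene symbol here. Same-numbered labelled knockdown and control arrays of a sex share only a number: over 11 pairs the correlation of their deviations ran from -0.096 to 0.135, with 2 above 0.1, and 1 array correlated best with its own number. With a replicate block there were 0 calls in each contrast and 0 pairs. Without labelled knockdown male 1 and female 4, a choice made after seeing the data as were the other class means, there were also 0 of each. At an unadjusted p under 0.05 limma gave 2423 probe sets in females, 1948 in males, 1949 for the average and 2358 for the difference. Of 27 member differences 17 changed sign under some alternative (47 of 804 values), the lowest adjusted p being 0.686. For Acta2 the sign turned in 5 of 30 alternatives in females, among them array weights (-0.07), and in 2 of 30 in males, with the arrays given above. The cause of these shifts was not tested.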
